A study of Mus musculus with 8 samples.

Results

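The 10 genes described here are the kinases of the Hippo pathway and the scaffold proteins that recruit or activate them: Stk3, Stk4, Sav1, Lats1, Lats2, Nf2, Amot, Amotl1, Wwc1 and Frmd6. They were chosen by name, and each was read from the array probe sets that name that gene only. Of the 10 genes, 9 had such a probe set, 1 each, among 19938 genes measured. Stk3 was not analysed here, since no probe set of the annotation used names it.

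The study asked how gene expression in the mouse intestinal epithelium changes when the coactivators YAP and TAZ are lowered in living animals. The arrays labelled siYAP/TAZ (n = 3) came from intestine given siRNAs for both coactivators, and the siGFP arrays (n = 3) from intestine given an siRNA for GFP, which mice do not carry. The array labelled shYAP/TAZ (n = 1) came from intestine given plasmids expressing shRNAs for both, and the shLacZ array (n = 1) from intestine given a plasmid expressing an shRNA for LacZ, a bacterial gene. All 8 samples were from male ICR mice, an outbred stock, 8 weeks old, and all had undergone transfection of the small intestine 4 days before epithelial cells were isolated. The labels give neither the share of cells that took up nucleic acid nor which arrays came from separate mice, so p-values describe the spread between these arrays, which may be technical. The labels name a control array for every knockdown array, which gives siRNA pairs 1, 2 and 3 and the shRNA pair, and they do not say what the arrays of a pair share.

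Hippo signalling runs through a chain of 2 kinase steps. STK3 and STK4, the MST kinases, bind the adaptor SAV1 and phosphorylate LATS1 and LATS2, and the LATS kinases phosphorylate YAP and TAZ, which are then held in the cytoplasm or degraded. NF2 (merlin), WWC1 (KIBRA) and FRMD6 act upstream at the cell cortex, and AMOT and AMOTL1 bind YAP at junctions and on actin. In the intestine the pathway restrains proliferation in the crypts and takes part in regeneration after injury. YAP and TAZ have no DNA-binding domain and act mainly through TEAD proteins, and Lats2 is a known transcriptional target that closes a negative feedback loop in mammalian cells.

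Because Lats2 is a feedback target, the promoters of the genes were searched for the core of the TEAD binding motif, GGAATG, on both strands (CATTCC on the other strand). The windows are from RefSeq, build GRCm38.p6, and run from 250 bases before to 50 bases after a gene start. All 9 measured genes matched a window, with 11 windows in all, since Lats2 and Nf2 have 2 each. The 6 letters occurred in 2 of the 11 windows, that of Sav1 and the first of Lats2, against 14.7% of 32851 windows of all genes. The Lats2 match starts at base 255 of the window, after the gene start, and the Sav1 match at base 145, on the other strand. The windows with a match are printed below with the motif in capitals, beside that of Stk4, the one gene of the 9 that was lower in every pair, which had no match. A match is only a run of letters, and its absence says nothing of TEAD binding elsewhere. The windows are Lats2 at chr14:57746074-57746373 (minus strand), Sav1 at chr12:69986953-69987252 (minus strand) and Stk4 at chr2:164073888-164074187 (plus strand).
Lats2: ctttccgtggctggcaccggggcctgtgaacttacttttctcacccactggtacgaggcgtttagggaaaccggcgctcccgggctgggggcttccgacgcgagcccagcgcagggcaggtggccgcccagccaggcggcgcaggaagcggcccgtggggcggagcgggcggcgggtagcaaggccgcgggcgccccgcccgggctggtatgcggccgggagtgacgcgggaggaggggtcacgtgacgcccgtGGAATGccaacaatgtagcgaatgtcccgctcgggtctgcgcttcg
Sav1: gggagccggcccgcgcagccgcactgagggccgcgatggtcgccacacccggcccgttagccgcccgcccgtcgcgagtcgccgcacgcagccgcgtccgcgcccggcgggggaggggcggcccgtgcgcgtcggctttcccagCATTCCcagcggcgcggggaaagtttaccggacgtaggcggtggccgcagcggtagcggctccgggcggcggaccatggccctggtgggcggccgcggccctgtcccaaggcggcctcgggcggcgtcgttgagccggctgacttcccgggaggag
Stk4: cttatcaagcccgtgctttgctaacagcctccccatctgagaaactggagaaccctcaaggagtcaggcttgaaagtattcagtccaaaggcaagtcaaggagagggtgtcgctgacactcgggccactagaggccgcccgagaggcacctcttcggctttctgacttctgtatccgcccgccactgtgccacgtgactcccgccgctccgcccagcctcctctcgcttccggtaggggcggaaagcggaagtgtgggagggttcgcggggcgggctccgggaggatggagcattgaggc
The 3 windows are rich in G and C, at 71.7% for Lats2, 78.3% for Sav1 and 61.7% for Stk4, where the median over all windows was 52.7%. Amot had the lowest share among first windows, 46.0%.

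Before the results, the arrays and the targeted genes were checked. Epithelial markers such as Epcam and Vil1 were bright on every array, with a list median between 10.68 and 11.82 on the log2 scale. They were not even between the siRNA labels. In that arm 9 of the 10 were lower in siYAP/TAZ and 1 higher, with a median difference of -0.23, beside 53.6% of all genes lower. Epcam lay wholly below siGFP there, as did 2.99% of all genes. In the shRNA pair 6 of the markers were higher and 4 lower. The targeted genes did not separate the labelled knockdowns from their controls. Yap1 had log2 intensities of 7.41, 6.78 and 7.47 in siYAP/TAZ 1 to 3, against 7.16, 7.64 and 7.20 in siGFP 1 to 3, and 7.25 in shYAP/TAZ against 7.35 in shLacZ. Wwtr1, which encodes TAZ, had 5.60, 5.94 and 5.66 in siYAP/TAZ 1 to 3, against 6.16, 5.36 and 6.52 in siGFP 1 to 3, and 6.02 in shYAP/TAZ against 5.96 in shLacZ. Wwtr1 was among the dimmest 33.3% of genes, so its values say little on knockdown. Over the 4 pairs the mean log2 difference was -0.11 for Yap1 (SE 0.23, limma adjusted p = 0.963) and -0.19 for Wwtr1 (SE 0.25, limma adjusted p = 0.935), neither past the threshold, so the groups are called by their labels and every direction below is that of the labels. The widest difference among arrays ran across the groups. siYAP/TAZ 2, siYAP/TAZ 3 and siGFP 3 stood apart from the other 5 on the first principal component, which held 56.8% of the variance. Those 3 arrays also had the lowest medians of 9 mitotic markers, 6.04, 5.53 and 5.42, against 7.85 to 8.87 on the other 5. They were lowest as well for 10 crypt base stem cell markers, at 6.14, 6.31 and 6.34, against 6.92 to 8.13. For 6 Paneth cell markers they had 7.99, 7.94 and 7.84, against 9.58 to 10.49. siRNA pair 2 therefore sets an array of low mitotic median against one of high median. The median mitotic marker difference was -1.75 in that pair and 0.19, -0.06 and 0.09 in siRNA pair 1, siRNA pair 3 and the shRNA pair. The medians of 7 of 8 B cell markers measured ran from 5.24 to 8.31 in siYAP/TAZ and from 4.77 to 5.47 in siGFP, with median pair differences of 0.09, 3.70, 1.60 and -1.15 in the same order. The 10 markers of crypt base stem cells, such as Lgr5, had medians of 6.14 to 6.93 in siYAP/TAZ, 6.34 to 8.13 in siGFP, 6.92 in shYAP/TAZ and 7.23 in shLacZ, and median pair differences of -0.80, -1.93, -0.28 and -0.56; 7 of the 10 had an unadjusted p under 0.05 over the pairs, beside 7.49% of all genes, and 0 passed after adjustment. In bulk RNA, fewer cells of a type and less RNA per cell cannot be told apart.

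In the comparison of the arrays labelled siYAP/TAZ with siGFP, 0 of the 9 genes passed limma's test after adjustment over all genes, and the background was also 0% of 19938 genes. At an unadjusted p under 0.05 there were 0 of 9, beside 1.19% of all genes. For none of the 9 did the siYAP/TAZ arrays lie wholly above the siGFP arrays (1.6% of all genes) or wholly below them (2.99%). The mean was lower in siYAP/TAZ for 6 of the 9 (Amot, Amotl1, Lats1, Lats2, Stk4 and Wwc1), beside 53.6% of all genes, and the median log2 difference was -0.10 over the 9 and -0.02 over all genes. Over the 4 labelled pairs, which include the same 6 siRNA arrays, limma with the pair as a block called 0 of the 9, and 4 genes, or 0.0201%, of all (B3galt5, B3gnt7, Olfr165 and Rdh7). There 0 of 9 had an unadjusted p under 0.05, beside 7.49% of all genes. The median over the 9 was -0.16 in that fit and -0.02 over all genes. None of the 9 was among the dimmest 33.3% of genes by mean level.

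**Figure D1:**
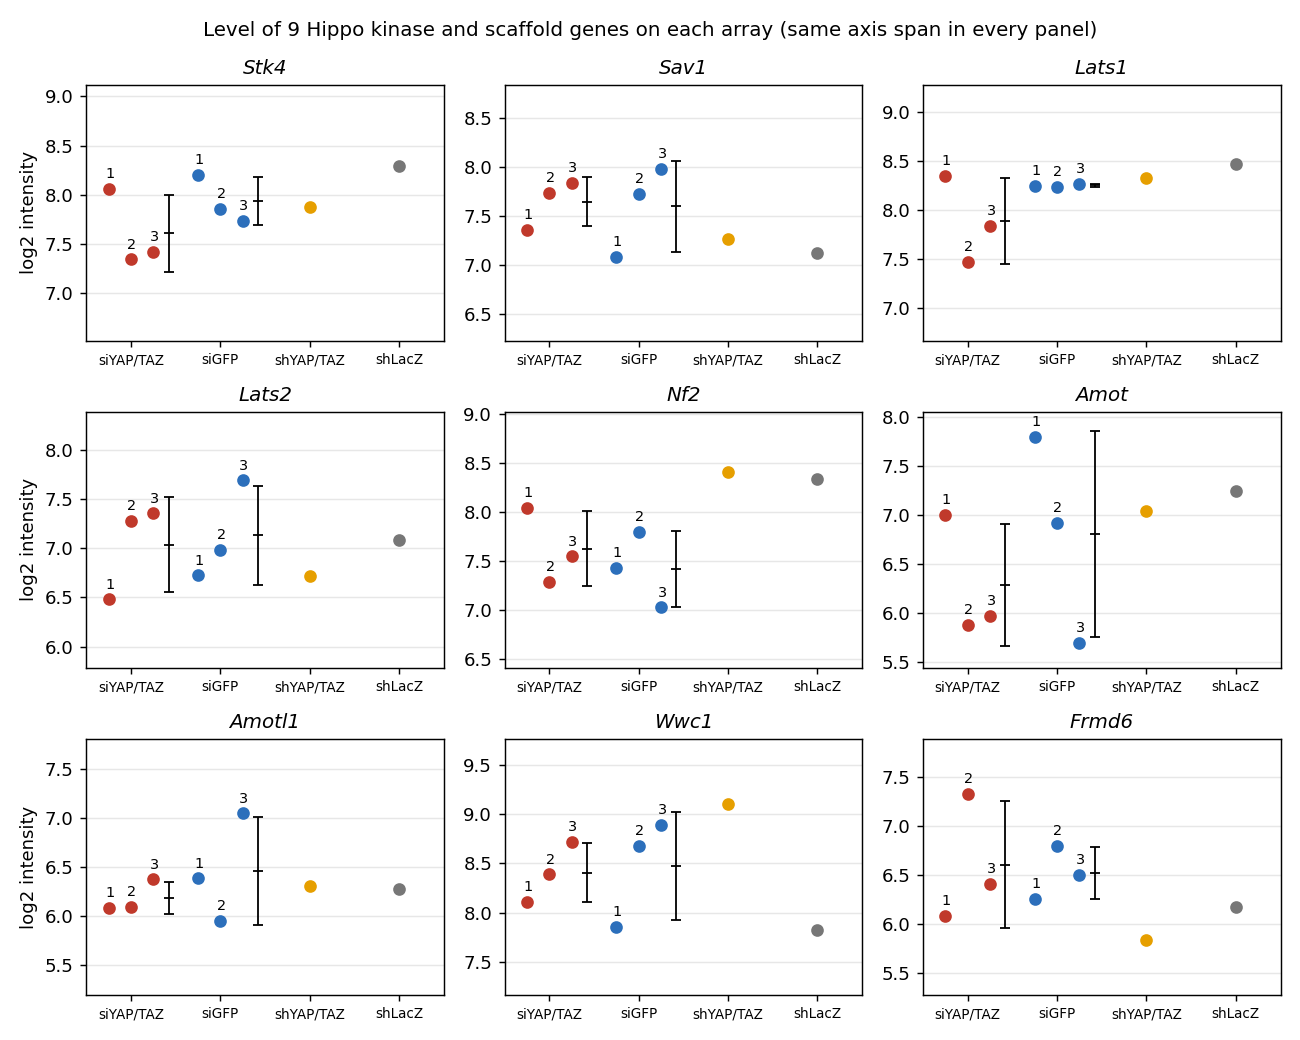
Log2 intensity (vertical axis) of 9 Hippo kinase and scaffold genes on each of 8 arrays, by group; numbers beside points are array numbers, and bars give the mean ± SD of the 3 arrays of an siRNA group. In every panel the siYAP/TAZ and siGFP points overlap; the Amot points are the most widely spread.

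Among the kinases and their adaptor, Stk4 was the only gene of the 9 that was lower in every pair. Stk4 had log2 intensities of 8.06, 7.34 and 7.42 in siYAP/TAZ 1 to 3, against 8.20, 7.86 and 7.74 in siGFP 1 to 3. It had 7.87 in shYAP/TAZ, against 8.29 in shLacZ. The groups overlapped only through siYAP/TAZ 1, which lay above siGFP 2 and siGFP 3. The pair differences were -0.14, -0.52 and -0.32 in siRNA pairs 1 to 3 and -0.42 in the shRNA pair, with a mean of -0.35 (SE 0.18, 95% confidence interval -0.76 to 0.06; limma adjusted p = 0.752). Being lower in all 4 pairs was seen in 8.95% of all genes, and being higher in all 4 in 6.02%, so 1 and 0 of the 9 genes are close to the background. The median of the crypt stem markers was also lower in each of the 4 pairs, with 6 of the 10 markers lower in all 4. Other lists had such markers too: 4 of 10 for enterocytes, 3 of 10 for epithelium and 2 of 6 for Paneth cells. For mitosis it was 0 of 9. The part of these lists in the Stk4 values was not tested. The mean Stk4 difference was -0.30 without siRNA pair 2 (limma adjusted p = 0.728). In the siRNA arm alone the means were 7.61 ± 0.40 in siYAP/TAZ and 7.93 ± 0.24 in siGFP (SD, n = 3 each), a log2 difference of -0.33 (SE 0.32, limma adjusted p = 1.00). That difference was -0.19 without siGFP 1 or without siYAP/TAZ 2, and -0.55 without siYAP/TAZ 1. It was 0.03 with the 3 arrays left out that stand apart on the first component, a choice made after seeing the data. That leaves siYAP/TAZ 1 alone against siGFP 1 and siGFP 2.

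Sav1, the adaptor of the MST kinases, showed no common direction. Its log2 intensities were 7.36, 7.74 and 7.84 in siYAP/TAZ 1 to 3, against 7.09, 7.73 and 7.98 in siGFP 1 to 3, and 7.27 in shYAP/TAZ against 7.13 in shLacZ. The groups overlapped, and the arrays of siRNA pairs 2 and 3 lay above those of siRNA pair 1 and the shRNA pair. It differed by 0.28, 0.01, -0.14 and 0.14 in siRNA pairs 1 to 3 and the shRNA pair, with a mean of 0.07 (SE 0.19, 95% confidence interval -0.35 to 0.49).

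Lats1, one of the kinases that act directly on YAP and TAZ, was nearly level on the 3 siGFP arrays and spread out on the siYAP/TAZ arrays. Its log2 intensities were 8.35, 7.47 and 7.84 in siYAP/TAZ 1 to 3, against 8.25, 8.24 and 8.27 in siGFP 1 to 3. They were 8.33 in shYAP/TAZ and 8.47 in shLacZ. siYAP/TAZ 2 and siYAP/TAZ 3 lay below the other 6 arrays, while siYAP/TAZ 1 lay above the siGFP arrays. The SD was 0.44 in siYAP/TAZ and 0.02 in siGFP (n = 3 each), a difference in spread that was not tested. By pair, Lats1 differed by 0.10, -0.76, -0.43 and -0.14, with a mean of -0.31 (SE 0.21, 95% confidence interval -0.77 to 0.16; limma adjusted p = 0.832). Without siRNA pair 2 the mean was -0.16. The siRNA difference was -0.36, with -0.59 without siYAP/TAZ 1 and -0.16 without siYAP/TAZ 2.

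Lats2, its paralogue and a known YAP target, did not follow Lats1. Its log2 intensities were 6.48, 7.28 and 7.36 in siYAP/TAZ 1 to 3, against 6.72, 6.98 and 7.69 in siGFP 1 to 3. It had 6.72 in shYAP/TAZ, against 7.08 in shLacZ. siYAP/TAZ 2, siYAP/TAZ 3 and siGFP 3, where the mitotic markers were lowest, had the highest Lats2 values of the 8 arrays. The pair differences were -0.24, 0.30 and -0.34 in the siRNA pairs and -0.37 in the shRNA pair, so the gene was lower in the 3 pairs with like mitotic medians and higher in siRNA pair 2. The mean was -0.16 (SE 0.20, 95% confidence interval -0.61 to 0.28; limma adjusted p = 0.925), and -0.32 without siRNA pair 2 (limma adjusted p = 0.698). The part of the mitotic, crypt stem, Paneth or B cell difference in these values was not tested.

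**Figure D2:**
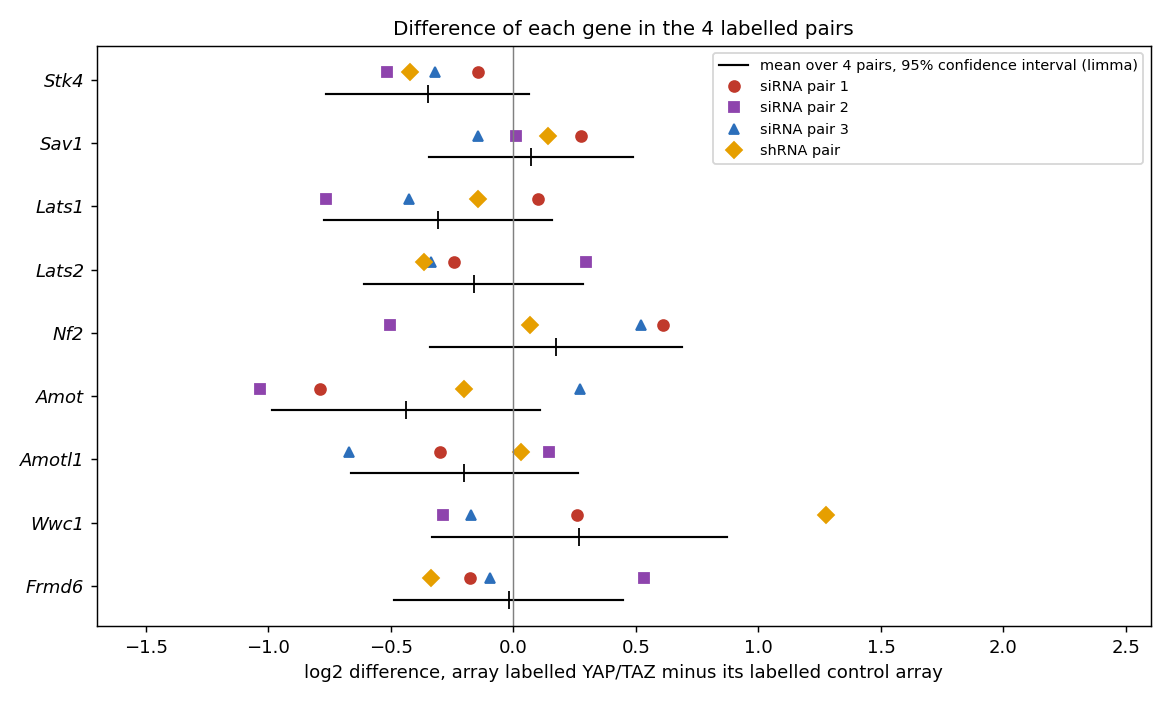
Log2 difference (horizontal axis), array labelled YAP/TAZ minus its labelled control, for each of the 9 genes; symbols are the 3 siRNA pairs and the shRNA pair, and the line is the mean over the 4 pairs with its 95% confidence interval. Every interval includes 0; Stk4 has all 4 symbols left of 0, and Wwc1 in the shRNA pair lies furthest right, at 1.28.

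Among the scaffolds at the cell cortex, Nf2, the merlin tumour suppressor, stood higher in 3 of 4 pairs. It had log2 intensities of 8.04, 7.29 and 7.55 in siYAP/TAZ 1 to 3, against 7.43, 7.79 and 7.03 in siGFP 1 to 3. Both shRNA arrays, at 8.40 in shYAP/TAZ and 8.33 in shLacZ, lay above all 6 siRNA arrays. The pair differences were 0.61, -0.50 and 0.52 in the siRNA pairs and 0.07 in the shRNA pair. The mean was 0.17 (SE 0.23, 95% confidence interval -0.34 to 0.69; limma adjusted p = 0.936), 0.40 without siRNA pair 2 and 0.03 without siRNA pair 1.

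Wwc1, which encodes the scaffold KIBRA that links NF2 to the LATS kinases, gave the widest single difference among the 9 genes, in the shRNA pair. Its log2 intensity was 9.10 in shYAP/TAZ and 7.82 in shLacZ, the highest and the lowest of the 8 arrays. That is 2.42-fold higher in shYAP/TAZ, with 1 array a group and no replicate check. In that pair all 8 of 8 myeloid markers were higher too, with a median difference of 0.85. Their list median was 7.04 in shYAP/TAZ and 5.85 in shLacZ. All 7 B cell, 10 crypt stem and 6 Paneth markers measured were lower there, with median differences of -1.15, -0.56 and -0.54. The part of any of these lists in the Wwc1 value was not tested. A rise of at least 1.5-fold in that pair was seen for 1 of the 9 genes and 5.62% of all genes, and a decrease of that size for 0 of the 9 and 8.46% of all genes. The siRNA arrays had 8.11, 8.39 and 8.72 in siYAP/TAZ 1 to 3, against 7.85, 8.68 and 8.89 in siGFP 1 to 3, with pair differences of 0.26, -0.29 and -0.17. The shRNA difference exceeded the mean siRNA difference by 1.34 (SE 0.72; limma in 1 fit of the 4 groups, unadjusted p = 0.095, adjusted p = 1.00), where the single shRNA arrays are assumed to vary like the siRNA groups. Over the 4 pairs the mean was 0.27 (SE 0.27, limma adjusted p = 0.905), and without the shRNA pair it was -0.07.

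Frmd6, a FERM-domain protein upstream of the kinases, was higher in siRNA pair 2 and lower in the other pairs. It had log2 intensities of 6.08, 7.33 and 6.41 in siYAP/TAZ 1 to 3, against 6.26, 6.79 and 6.50 in siGFP 1 to 3. It had 5.83 in shYAP/TAZ, the lowest of the 8, against 6.17 in shLacZ. By pair, Frmd6 differed by -0.18, 0.53, -0.09 and -0.34, with a mean of -0.02 (SE 0.21, 95% confidence interval -0.49 to 0.45), and the mean was -0.20 without siRNA pair 2.

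The angiomotins differed from each other. Amot, which ties YAP to junctions and actin, had the widest range of the 9 genes over the 8 arrays, 2.09 on the log2 scale, and an SD over those arrays that stood at percentile 89.7 of all genes. Its log2 intensities were 7.00, 5.88 and 5.97 in siYAP/TAZ 1 to 3, against 7.79, 6.92 and 5.70 in siGFP 1 to 3, and 7.04 in shYAP/TAZ against 7.24 in shLacZ. The 3 lowest arrays were siGFP 3, siYAP/TAZ 2 and siYAP/TAZ 3, the ones with the lowest mitotic medians, and the other 5 lay at 6.92 or above. The pair differences were -0.79, -1.04, 0.27 and -0.20, with a mean of -0.44 (SE 0.24, 95% confidence interval -0.99 to 0.11; limma adjusted p = 0.776). That mean was -0.24 without siRNA pair 2 and -0.68 without siRNA pair 3. In the siRNA arm the difference was -0.52 (SE 0.54), with -1.07 without siGFP 3 and -0.03 without siGFP 1.

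Amotl1, the related angiomotin, spanned 1.09 on the log2 scale. It had 6.08, 6.10 and 6.37 in siYAP/TAZ 1 to 3, against 6.38, 5.95 and 7.05 in siGFP 1 to 3, and 6.31 in shYAP/TAZ against 6.28 in shLacZ. siGFP 3 alone lay well above the other arrays. By pair, Amotl1 differed by -0.30, 0.14, -0.67 and 0.03, with a mean of -0.20 (SE 0.21, limma adjusted p = 0.908; -0.31 without siRNA pair 2 and -0.04 without siRNA pair 3), and the siRNA difference of -0.28 became 0.02 without siGFP 3.

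siRNA pair 2 gave the highest or the lowest of the 4 pair differences for 8 of the 9 genes (all but Sav1), beside 69.1% of all genes. Its median difference, taken without sign, was 0.50 over the 9 genes and 0.47 over all genes, against 0.20 to 0.32 over the 9 genes in the other pairs. Stk4, Lats1, Nf2, Amot and Wwc1 had their lowest difference there, and Lats2, Amotl1 and Frmd6 their highest.

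**Figure D3:**
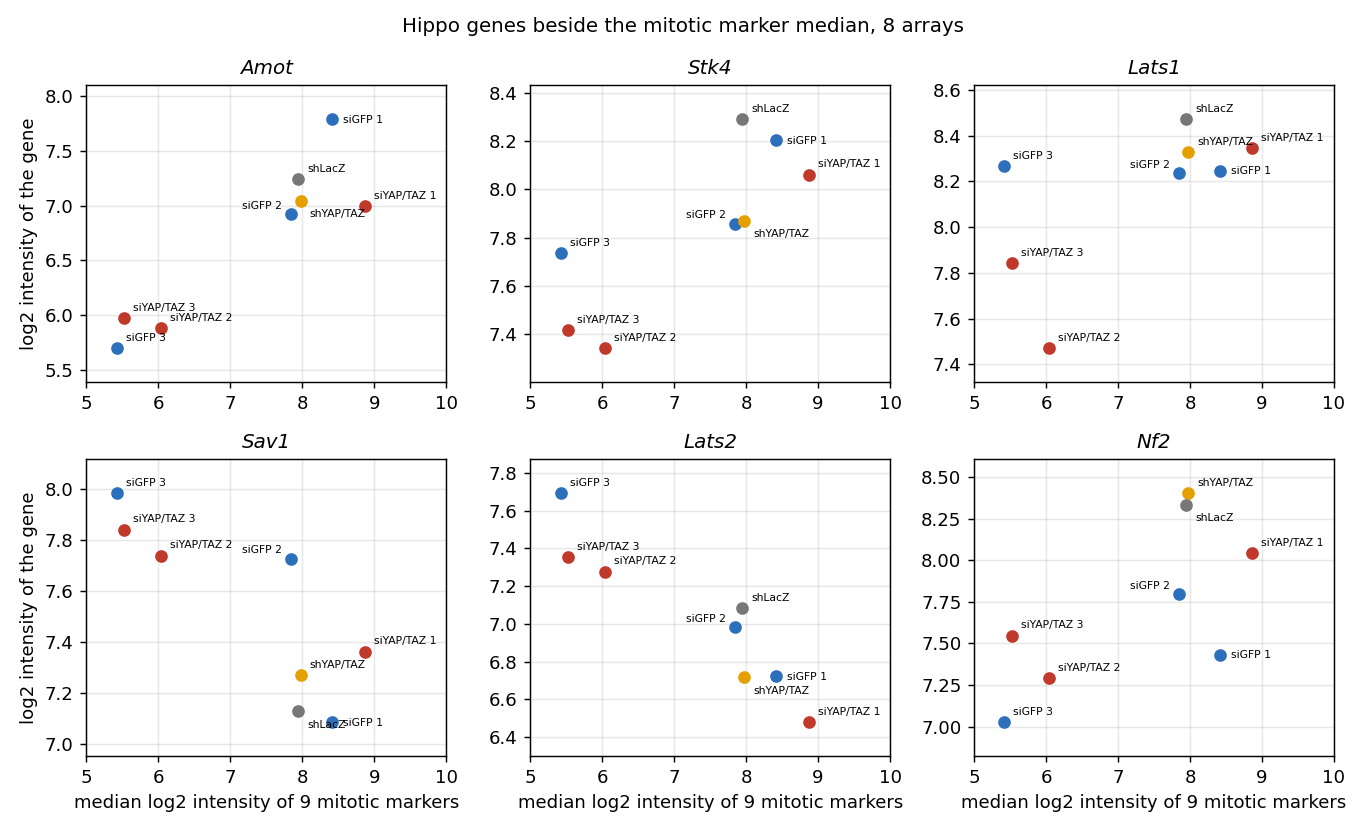
Log2 intensity of 6 of the genes (vertical axis) against the median log2 intensity of 9 mitotic markers (horizontal axis) on the 8 arrays, each point 1 array. The 3 arrays left of a marker median of 7, siYAP/TAZ 2, siYAP/TAZ 3 and siGFP 3, hold the 3 lowest Amot and Stk4 values and the 3 highest Sav1 and Lats2 values.

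Arrays of both labels lay on each side of that marker gap. It split 4 of the 9 genes, 2 in each direction, which is near the shares of all genes given below. The crypt stem and Paneth medians part the same arrays, so the gap is not one of mitotic markers alone. On siYAP/TAZ 2, siYAP/TAZ 3 and siGFP 3, Stk4 and Amot had their 3 lowest values of the 8 arrays, 2 of 9 genes beside 17.7% of all genes. Sav1 and Lats2 had their 3 highest there, 2 of 9 beside 18% of all genes. For Sav1 the margin was slight, with 7.74 on siYAP/TAZ 2 and 7.73 on siGFP 2. The other genes, Lats1, Nf2, Amotl1, Wwc1 and Frmd6, were not split by it. Nf2 was lowest on siGFP 3 and siYAP/TAZ 2, and Lats1 on siYAP/TAZ 2 and siYAP/TAZ 3. The arrays also parted by pair. Those of siRNA pair 1 and the shRNA pair lay wholly above those of siRNA pairs 2 and 3 for Amot and Stk4, 2 of 9 genes beside 12.6% of all genes, and wholly below for Sav1 and Frmd6, 2 of 9 beside 14.4%. This grouping of the pairs was noticed in the data, the labels name no batch, and both arrays of a pair lie on the same side, so that a shift common to these sets of pairs cancels within a pair.

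By Pearson's r over the 8 arrays, the gene most like each member among the brighter genes was Pip4k2c for Stk4 (r = 0.989), Zcchc9 for Sav1 (0.992), Vps72 for Lats1 (0.977) and Tmem211 for Lats2 (0.987). It was Tkfc for Nf2 (0.962), Zfp664 for Amot (0.990), Syn1 for Amotl1 (0.978), Arg1 for Wwc1 (0.936) and Zp4-ps for Frmd6 (0.963). These values describe 8 arrays that share the gap in mitotic, crypt stem and Paneth markers, and they are the highest of 12393 genes searched. The number of genes with r over 0.9 ran from 4 for Wwc1 and 14 for Nf2 to 437 for Stk4 and 750 for Amot.

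The rest of the pathway was read from 5 lists of 104 genes by role, of which 96 were measured. None of the 96 passed limma's adjusted threshold in the siRNA arm or over the 4 pairs. At an unadjusted p under 0.05 there were 0 in the siRNA arm and 10 (10.4%) over the pairs, beside the 1.19% and 7.49% of all genes given above. The siRNA groups did not overlap for 5 of the 96, of which 2 were higher (2.08%, beside 1.6% of all genes) and 3 lower (3.12%, beside 2.99%) in siYAP/TAZ. In all 4 pairs, 13 of the 96 were higher (13.5%, beside 6.02% of all genes) and 6 lower (6.25%, beside 8.95%). Their median log2 difference was 0.00 in both fits. The 5 genes without overlap were Sfn and Heg1, which were higher, and Mink1, Prkcz and Ppm1a, which were lower. Heg1, a junction receptor that is best known from endothelium, stood at 0.27 (SE 0.28) in the siRNA arm, and Ppm1a, a protein phosphatase, at -0.48 (SE 0.28). Neither passed over the pairs (limma adjusted p = 0.881 for Heg1 and 0.661 for Ppm1a).

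**Figure D4:**
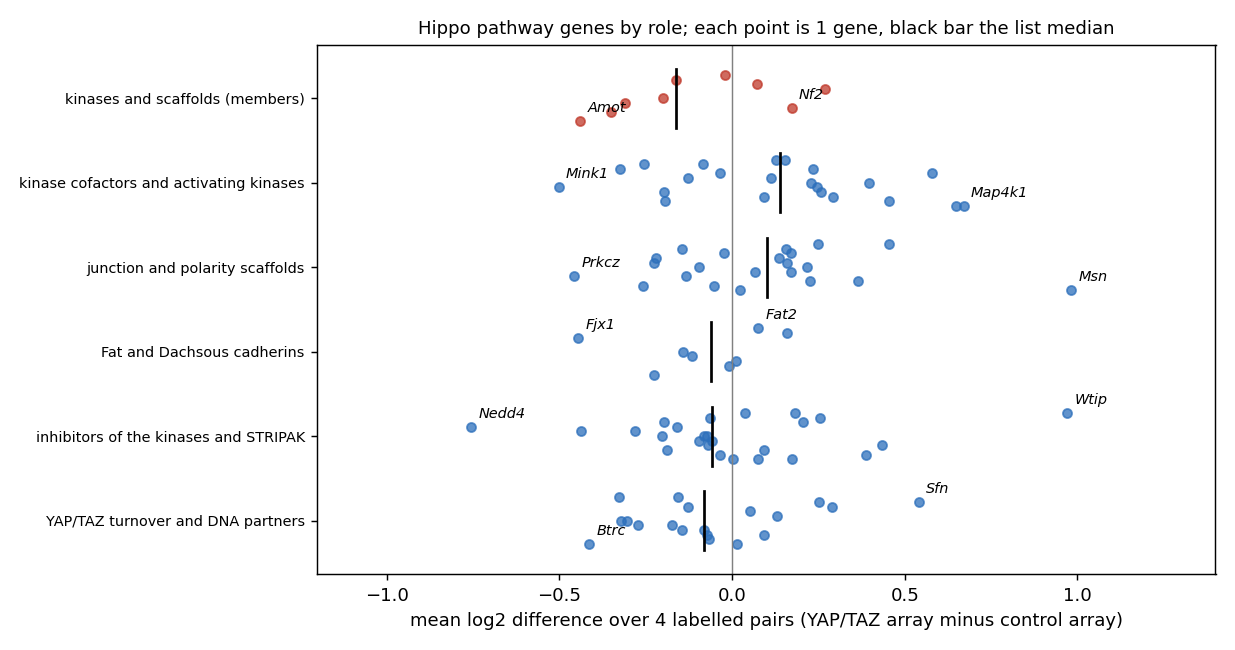
Mean log2 difference over the 4 labelled pairs (horizontal axis), YAP/TAZ array minus control array, for the 9 kinase and scaffold genes (red) and for 5 lists of other Hippo pathway genes (blue), each point 1 gene and each black bar a list median. The medians run from -0.16 for the kinases and scaffolds to 0.14 for cofactors and activating kinases; Msn and Wtip lie furthest right and Nedd4 furthest left.

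Among cofactors and activating kinases (22 of 25 measured), 0 passed in either fit, and the median over the pairs was 0.14. Map4k1, a kinase of blood cells, had the highest siRNA difference, 0.92 (SE 0.45), and its pair differences of 0.03, 1.75, 0.98 and -0.09 lay beside B cell medians of 0.09, 3.70, 1.60 and -1.15; the part of B cells in it was not tested. Mink1, a kinase of the MAP4K family, had the lowest, -0.64 (SE 0.30), with every siYAP/TAZ value under the lowest siGFP value and lower values in all 4 pairs (mean -0.50, SE 0.20, limma adjusted p = 0.622). Among junction and polarity scaffolds (22 of 25 measured), Msn, which encodes moesin, stood at 0.92 (SE 0.48) in the siRNA arm. It was higher in all 4 pairs, by 0.07, 1.74, 0.94 and 1.18 (mean 0.98, SE 0.26, limma adjusted p = 0.353). Myeloid marker medians in the same pairs were 0.14, 0.02, -0.44 and 0.85, and the B cell medians are given above. The part of either cell type in Msn was not tested. Prkcz, an atypical protein kinase C of the polarity complex, stood at -0.45 (SE 0.27), again without overlap, and was lower in all 4 pairs (mean -0.46, SE 0.19, limma adjusted p = 0.618). Among the Fat and Dachsous cadherins and their partners (8 of 9 measured), the extremes were Fat2 at 0.20 (SE 0.42) and Fjx1 at -0.26 (SE 0.38).

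Among genes that restrain the kinases (25 of 26 measured), Wtip, a LIM-domain protein that binds LATS, stood at 0.76 (SE 0.87) in the siRNA arm. It was higher in all 4 pairs, by 1.62, 0.45, 0.21 and 1.61 (mean 0.97, SE 0.28, limma adjusted p = 0.391), and was among the dimmest 33.3% of genes. Nedd4, a ubiquitin ligase, stood at -0.95 (SE 0.78), with -2.23 in siRNA pair 2 and -0.15, -0.48 and -0.16 in the others. Among the genes of YAP/TAZ turnover and DNA partners (19 of 19 measured), Sfn, a 14-3-3 protein, stood at 0.51 (SE 0.29), with every siYAP/TAZ value over the highest siGFP value and higher values in all 4 pairs (mean 0.54, SE 0.19, limma adjusted p = 0.537). Btrc, a subunit of the ligase that marks YAP for degradation, stood at -0.46 (SE 0.35). Among YAP/TAZ target genes (23 of 24 measured), where Lats2 also belongs, 0 passed in either fit and the median over the pairs was 0.01. F3, tissue factor, had the highest siRNA difference, 0.53 (SE 0.61). Edn1, which encodes endothelin, had the lowest, at -0.83 (SE 0.30). Edn1 was lower in all 4 pairs, with log2 differences of -0.47, -1.05, -0.96 and -1.19 (mean -0.92, SE 0.20, limma adjusted p = 0.259), and was among the dimmest 33.3% of genes. Its siYAP/TAZ values lay wholly below its siGFP values, as for 2.99% of all genes. Of the 23 targets, 1 was lower and 2 were higher in all 4 pairs, beside 8.95% and 6.02% of all genes.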

How the data were processed

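Per the labels, total RNA from isolated intestinal epithelial cells was biotin-labelled with an Affymetrix WT kit and hybridised to 8 arrays. The authors deposited intensity values on a linear scale for 28853 probe sets; their background correction, summarisation and scaling have no description in the labels used here. No value was below 16, and array medians ran from 76.4 to 95.5. Intensities were put on the log2 scale and quantile normalized. Of the probe sets, 21789 name 1 gene, 1621 several and 5443 none; symbols were updated through Entrez identifiers for 21698, from a RefSeq table of GRCm38.p6. Each of 19938 genes took its probe set of highest mean (999 genes had several). Groups came from titles and pairs from the labels' control assignments. limma 3.58.1 in R 4.3.3 was fitted across all genes for the siRNA arm without a block and for the 4 pairs with the pair as a block, with Benjamini-Hochberg adjustment and a threshold of 0.05. The fits were tested on simulated data with every gene drawn independently. That check does not cover variation that genes share across arrays, such as the first component. The number of arrays limits the precision.

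The genes and lists were chosen with earlier results of these data known. Named genes are the members, the targeted genes, the highest and lowest siRNA difference of each Hippo list, the gene most like each member (unnamed predicted genes, receptors and microRNAs passed over), and members of counts of 5 or fewer. The alternatives were another scaling, none, taking off the lowest value, averaging probe sets, leaving out dim genes, another prior, array weights, the block, 1 fit of 8 arrays and leaving out arrays or pairs. The marker lists also covered stem, enterocyte, goblet, Paneth, enteroendocrine, tuft, T, myeloid, fibroblast, muscle, endothelial, enteric nerve and pancreas genes.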

Additional observations from a re-analysis of the deposited data

How the results depend on the processing

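None of the 9 genes passed the threshold under any alternative run. Of 306 recomputed differences of the 9 genes, 279 kept their direction and 27 turned. In the siRNA arm limma called 0 genes in all, 1 with the replicate block (0 of the 9 genes) and 0 to 13 with 1 array left out (13 without siYAP/TAZ 1). With both arrays numbered 2 left out, a choice made after seeing the data, Wwc1 stood at 0.04, Frmd6 at -0.14 and Yap1 at 0.26. With the 3 arrays apart on the first component left out, also chosen after seeing the data, limma called 38 genes, none of the 9, and Stk4 stood at 0.03, Sav1 at -0.04, Lats1 at 0.10, Frmd6 at -0.45 and Yap1 at 0.01; only 3 arrays remain there. Array weights turned Lats2 to 0.29, Nf2 to -0.09, Amotl1 to 0.12, Wwc1 to 0.12, Frmd6 to -0.07 and Wwtr1 to 0.02, and Yap1 to 0.00 over the pairs. Without normalization Sav1 and Frmd6 both stood at -0.01. The cause was not tested.

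With 1 array left out, the siRNA difference ran from -0.55 to -0.19 for Stk4, -0.59 to -0.16 for Lats1, 0.00 to 0.40 for Nf2, -1.07 to -0.03 for Amot, -0.21 to 0.24 for Sav1 (turned without siGFP 1 or siYAP/TAZ 3), -0.30 to 0.18 for Lats2 (siYAP/TAZ 1 or siGFP 3), -0.53 to 0.02 for Amotl1 (siGFP 3), -0.38 to 0.14 for Wwc1 (siYAP/TAZ 1, siGFP 2 or siGFP 3), -0.27 to 0.35 for Frmd6 (siGFP 1 or siYAP/TAZ 2) and -0.24 to 0.11 for Yap1 (siGFP 2 or siYAP/TAZ 2). With 1 pair left out, the mean over pairs ran from -0.07 to 0.45 for Wwc1 (turned without the shRNA pair), -0.20 to 0.09 for Frmd6 (without siRNA pair 1, siRNA pair 3 or the shRNA pair), -0.24 to 0.14 for Yap1 (siRNA pair 2) and -0.45 to 0.03 for Wwtr1 (siRNA pair 3). Over the pairs limma called 4 genes in all, and 15 with 75th percentile centring, 19 without normalization, 2 with the lowest value taken off, 8 without dim genes, 12 with a trended robust prior, 96 with array weights, 0 with the arm as a covariate and no replicate block, and 1 to 26 with 1 pair left out (11, 26 and 7 without siRNA pairs 1, 2 and 3).

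Deviations from the group means correlated at 0.75, -0.13 and 0.57 between the siRNA arrays numbered 1, 2 and 3, and 3 of 6 arrays lay closest to their own number, so the data do not bear out a pairing by number in all 3 pairs.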
